A study of Mus musculus with 11 samples.

Results

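The genes described here encode the nuclear subunits of the mitochondrial respiratory chain and of ATP synthase, the machinery of oxidative phosphorylation. They were chosen by symbol: probe sets with a single gene symbol that begins with Nduf, Uqcr, Atp5 or Cox4 to Cox8, or that is Sdha, Sdhb, Sdhc or Sdhd, with each gene read from whichever of its probe sets was brightest on average across the 11 arrays. This gave 90 of the 18193 genes measured, with 179 probe sets in all. They comprise 34 subunits of complex I, 4 of complex II, 8 of complex III, 19 genes of complex IV and 17 of complex V, and 8 complex I assembly factors (Ndufaf1 to Ndufaf8), which take part in building the complex but are not in it. No measured value entered the choice of genes beyond the choice among probe sets.

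Affymetrix mouse expression arrays measured total RNA of mouse cells of a C57/Bl and BlackSwiss mixed background, as log2 RMA values. The induced pluripotent stem cells came from ventricular myocytes (ViPSC, n = 3 arrays) or tail tip fibroblasts (TiPSC, n = 3), and embryonic stem cells (ESC, n = 3) were matched to them genetically. The pluripotent cells grew with serum and LIF on irradiated embryonic fibroblast feeders, which were removed by differential plating. The cells of origin were taken from newborn pups (postnatal day 1): ventricular cardiomyocytes (VM) and fibroblasts of the tail tip (TTF). Each has a single array, so that no comparison with them has a test. Nothing in the labels says that the 3 arrays of a group were separate cultures or lines, so p-values measure only the spread between these arrays. How the cells were reprogrammed is not given in the sources used here.

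Complex I oxidises NADH and complex II oxidises succinate, and both pass the electrons to ubiquinone. Complex III hands them on to cytochrome c, and complex IV, cytochrome c oxidase, to oxygen. Complexes I, III and IV pump protons, and complex V uses the gradient to make ATP. Heart muscle holds dense mitochondria and lives largely on oxidative phosphorylation, while pluripotent stem cells in culture rely more on glycolysis. Several subunits of complex IV exist in 2 forms, one made in most tissues and one made in heart and skeletal muscle: Cox6a1 and Cox6a2, Cox7a2 and Cox7a1, Cox8a and Cox8b. All these genes are nuclear, and the subunits encoded in mitochondrial DNA are outside the choice.

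The cells carried the markers of their labels, with others beside them. The 7 cardiomyocyte markers had a median of 14.28 in VM, 3.96 in TTF and 3.74 to 4.15 in the pluripotent arrays, and the 6 pluripotency markers had 12.14 to 12.75 in the pluripotent arrays against 3.63 in VM and 3.90 in TTF. The 7 fibroblast and feeder markers had 13.26 in TTF but also 10.50 in VM, and 5.46 to 6.46 in the pluripotent arrays. The 5 endothelial markers had 10.91 in VM and 4.11 in TTF. Of 7 skeletal muscle markers the determination genes Myod1 (3.82) and Myog (4.07) were near the bottom of the scale in VM, while Ckm (14.15) and Acta1 (10.51), which heart muscle shares, were high. The brown fat markers Ucp1 and Adipoq were at 3.19 and 2.95 in VM, with Cidea at 9.39 and Fabp4 at 13.56. The logarithm of the summed level was 14.04 in VM against 16.26 in TTF for fibroblast markers and 13.18 against 6.44 for endothelial markers. The part of these cells in the values below was not tested. In RNA of mixed cells, fewer cells of a type and less RNA per cell cannot be told apart.

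The sequences next to paired isoforms are shown because the muscle forms of complex IV had the largest differences between VM and TTF of all classes, and their ubiquitous partners far smaller ones. RefSeq promoters (GRCm38.p6, 250 bases before to 50 after the start) were matched for 74 of the 90 genes, and the stretches before the start of both forms of the Cox8 pair, of muscle Cox7a1 and of ubiquitous Cox6a1 follow, 5′ to 3′ on the gene's strand. Capitals mark matches to motifs of NRF1, a regulator of respiratory genes, and of the E-box (CAGCTG) bound by muscle and other factors.
Cox8b, muscle form, chr7:140900447-140900696, minus strand: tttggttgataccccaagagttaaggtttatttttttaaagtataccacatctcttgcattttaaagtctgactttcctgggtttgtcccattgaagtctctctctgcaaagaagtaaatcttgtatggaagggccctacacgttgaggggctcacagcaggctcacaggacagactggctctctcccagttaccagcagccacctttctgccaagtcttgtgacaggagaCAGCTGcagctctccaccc
Cox8a, ubiquitous form, chr19:7217617-7217866, minus strand: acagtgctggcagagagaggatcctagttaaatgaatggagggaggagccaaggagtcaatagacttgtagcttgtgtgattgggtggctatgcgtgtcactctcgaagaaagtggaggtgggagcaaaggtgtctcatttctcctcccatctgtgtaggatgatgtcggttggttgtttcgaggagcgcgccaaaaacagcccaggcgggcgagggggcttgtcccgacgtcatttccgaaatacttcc
Cox7a1, muscle form, chr7:30183921-30184170, plus strand: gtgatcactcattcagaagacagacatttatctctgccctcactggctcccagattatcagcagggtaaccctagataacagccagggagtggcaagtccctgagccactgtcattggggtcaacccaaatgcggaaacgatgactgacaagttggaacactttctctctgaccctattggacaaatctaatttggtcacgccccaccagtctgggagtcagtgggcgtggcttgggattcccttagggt
Cox6a1, ubiquitous form, chr5:115348959-115349208, minus strand: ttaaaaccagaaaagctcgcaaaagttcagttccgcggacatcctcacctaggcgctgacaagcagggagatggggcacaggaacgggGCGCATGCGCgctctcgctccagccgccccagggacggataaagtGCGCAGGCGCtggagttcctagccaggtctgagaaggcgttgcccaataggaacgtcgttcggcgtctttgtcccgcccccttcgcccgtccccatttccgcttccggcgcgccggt
The Cox8b stretch holds an E-box 19 bases before the start, and that of Cox6a1 holds NRF1 motifs at 162 and 117 bases before it. Those of Cox8a and Cox7a1 hold none of the motifs searched. Cox6a2 had no RefSeq promoter to match and Cox7a2 is not shown, so only the Cox8 pair is given with both forms.

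Over both strands, 17 of the 74 matched genes (23%) held the NRF1 motif in a promoter, against 5.19% of the 27025 genes with a RefSeq promoter. The YY1 motif (AAGATGGC) was held by 10 (13.5%, against 3.19%). The oestrogen-related receptor motif (TCAAGGTCA) was held by 2, Sdhd and Atp5g3 (2.7%, against 0.466%). Among the genes with the NRF1 motif were Sdha and Sdhd of complex II, Uqcrc1 of complex III and 6 of complex V with Atp5o among them. Both forms of the MEF2 motif searched were held by 0 of the 74 (0.181% and 0.122% of all genes with a promoter) and the E-box by 6 (8.11%, against 18.3%). These counts describe letters in short windows and say nothing of binding.

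VM against TTF asks how the source cells differed in these genes. The VM array was higher for nearly the whole machinery: 68 of the 90 genes were at least 1 log2 unit (2-fold) higher in VM and 1 was lower, where 10.6% of all genes measured were higher and 13.6% lower by that size. The median difference was 1.42 log2 units, a fold of 2.67, against a median of −0.02 over all genes. VM was the highest of the 11 arrays for 76 of the 90 genes, against 19.9% of all genes. At 2 log2 units the counts were 19 higher and 1 lower, against 4.68% and 4.62% of all genes. Most members were thus higher in VM by more than 1 but less than 2 units.

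**Figure D1:**
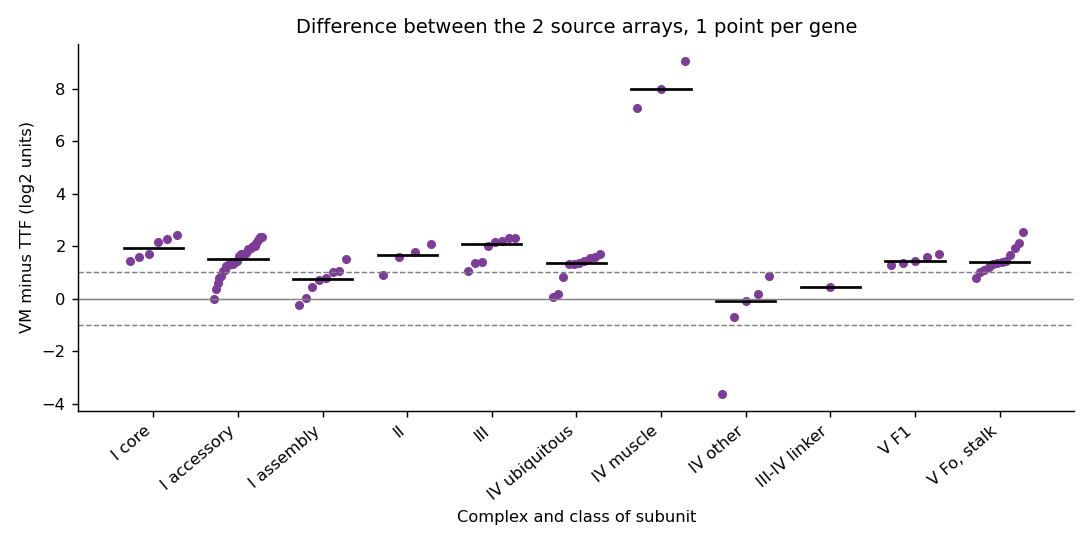
Log2 difference between the VM and the TTF array (y axis, log2 units) for each of the 90 genes, grouped by complex and class of subunit (x axis); each point is 1 gene, bars are medians and dashed lines mark 1 log2 unit. Most classes sit between 1 and 2.5, the 3 muscle forms of complex IV lie between 7.25 and 9.07, and Ndufa4l2 lies at −3.62.

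In complex I, 29 of 34 subunits were at least 1 unit higher in VM (median 1.65). All 6 core subunits, which carry the electron path, were among them (median 1.94), and 23 of 28 accessory subunits, which surround and stabilise the core (median 1.51). Ndufv1, the core subunit that binds FMN and takes electrons from NADH, was at 11.40 to 11.45 in ViPSC, 11.06, 11.27 and 11.34 in TiPSC, 11.03 to 11.15 in ESC, 10.85 in TTF and 13.28 in VM. Its VM value stood 2.43 units (5.39-fold) above TTF and above every pluripotent array. Ndufb10, an accessory subunit of the membrane arm, was at 12.78 in VM against 10.42 in TTF and 10.09 to 10.60 in the pluripotent arrays (5.16-fold over TTF). Ndufs1, the largest iron-sulphur subunit, was at 12.25 against 10.00, and Ndufa5 at 12.85 against 10.50. The smallest differences were those of Ndufa7, at 12.37 in VM, 12.00 in TTF and 12.06 to 12.56 in the pluripotent arrays, and of Ndufb4. The only probe set of Ndufb4 was at 3.23 to 3.93 on all 11 arrays, near the bottom of the scale, so it says little about that gene. The assembly factors followed less: 2 of 8 were at least 1 unit higher in VM (median 0.75), Ndufaf4 (10.51 against 8.99) and Ndufaf3 (9.41 against 8.37), and Ndufaf6 (7.81 against 6.81) lay just under the limit. VM was the highest array for 2 of these 8, against 32 of the 34 complex I subunits. The difference between the assembly factors and the subunits was not tested.

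Complex II has no isoforms and no mitochondrially encoded part, and its 4 genes were all higher in VM. Sdha, the flavoprotein that oxidises succinate, was at 11.16, 11.22 and 11.25 in ViPSC, 11.08, 11.11 and 11.08 in TiPSC, 10.93, 10.91 and 11.19 in ESC, 10.82 in TTF and 12.89 in VM, 4.21-fold above TTF. Sdhb, the iron-sulphur subunit, was at 13.31 in VM against 11.52 in TTF and 10.95 to 11.41 in the pluripotent arrays. The membrane anchors were at 11.92 in VM against 10.35 in TTF (Sdhd) and 10.89 against 9.98 (Sdhc). VM was the highest of the 11 arrays for all 4, and Sdhc alone fell short of 1 unit, at 0.91.

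All 8 measured complex III genes were at least 1 unit higher in VM, and their median of 2.10 was the highest of the complexes. Uqcrc2, a core protein of the complex, was at 11.59 to 11.65 in ViPSC, 11.50 to 11.60 in TiPSC, 11.60 to 11.69 in ESC, 11.13 in TTF and 13.43 in VM (4.92-fold over TTF). Uqcr11, a small accessory subunit, was at 13.76 against 11.47 (4.90-fold), and Uqcrfs1, the Rieske iron-sulphur protein, at 12.62 against 10.44. The pluripotent arrays thus lay within 0.19 units of each other for Uqcrc2 while VM stood 1.73 units above the highest of the other arrays. The smallest differences were those of Uqcrb (14.66 against 13.59, 2.09-fold) and Uqcrh, the hinge protein (13.78 against 12.41, 2.58-fold). Uqcr10 was at 13.24 against 11.05 by its brightest probe set, but another of its probe sets was at 8.05 against 8.35. It was the only one of 41 genes with several probe sets of mean at least 7 in which these differed in direction, and 40 were higher in VM by all of them.

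In complex V, 16 of 17 genes were at least 1 unit higher in VM (median 1.41). They included the 5 subunits of the catalytic F1 head (median 1.44), with Atp5b, the catalytic beta subunit, at 14.15 in VM against 12.88 in TTF and 13.17 to 13.42 in the pluripotent arrays. Of the 12 genes of the membrane part and stalk, 11 were higher (median 1.40), with Atp5o, the stalk subunit that confers oligomycin sensitivity, at 13.89 against 11.79 (4.30-fold). Subunit c, the ring that turns as protons pass, is encoded by 3 genes with the same mature protein, and these differed from each other. Atp5g1 was at 12.16, 12.13 and 12.25 in ViPSC, 12.00, 11.87 and 11.51 in TiPSC, 11.51, 11.94 and 12.35 in ESC, 11.38 in TTF and 13.94 in VM, 5.89-fold above TTF. Atp5g3 was at 14.22 in VM against 13.14 (2.11-fold) and Atp5g2 at 12.49 against 11.70 (1.74-fold), and for Atp5g2 the VM value lay only 0.19 above the highest TiPSC array. Atp5pb, subunit b of the stalk, was at 13.39 against 12.39.

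Complex IV was the most mixed. Of its 10 ubiquitous subunits 7 were at least 1 unit higher in VM (median 1.35), such as Cox4i1 (14.35 in VM, 13.03 in TTF), Cox5a (14.12 against 12.43) and Ndufa4, named for complex I but part of complex IV (13.62 against 12.07). Cox7a2l, which joins complexes III and IV into larger assemblies, was at 11.89 against 11.45. Cox6a1 was at 13.80 to 13.90 in 5 of 6 induced arrays and 13.74 in TiPSC 3, at 13.59 to 13.80 in ESC, 14.10 in TTF and 14.17 in VM, and so differed by 0.06. Its dimmer probe set was at 12.80 in VM and 12.60 in TTF.

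The muscle forms set VM apart by far more. Cox8b was at 4.39, 4.50 and 4.42 in ViPSC, 4.23, 4.48 and 4.42 in TiPSC, 4.30, 4.33 and 4.59 in ESC, 4.18 in TTF and 13.25 in VM. Cox6a2 was at 6.58, 6.68 and 6.59, then 6.54, 6.82 and 6.54, then 6.58, 6.68 and 6.68 in the same groups, 6.56 in TTF and 13.81 in VM, and its other probe set at 10.55 in VM and 3.12 to 3.43 elsewhere. Both genes were thus at 1 low level in the 10 other arrays and high in VM alone. The Cox8b level in those arrays, and that of the dimmer Cox6a2 probe set, is near the bottom of the scale and may be background, so no fold is given. Set against its ubiquitous partner within each array, the muscle form was higher in VM than in TTF by 7.19 log2 units for Cox6a2 and Cox6a1, by 8.24 for Cox8b and Cox8a and by 6.55 for Cox7a1 and Cox7a2. With the mean of all probe sets these were 7.17, 8.52 and 6.23. Their size depends on the TTF values of the muscle forms, which for Cox8b (4.18) and Cox7a1 (4.33) are near the bottom of the scale. They are differences of a difference between arrays, and the probe levels of 2 genes cannot be set against each other.

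**Figure D2:**
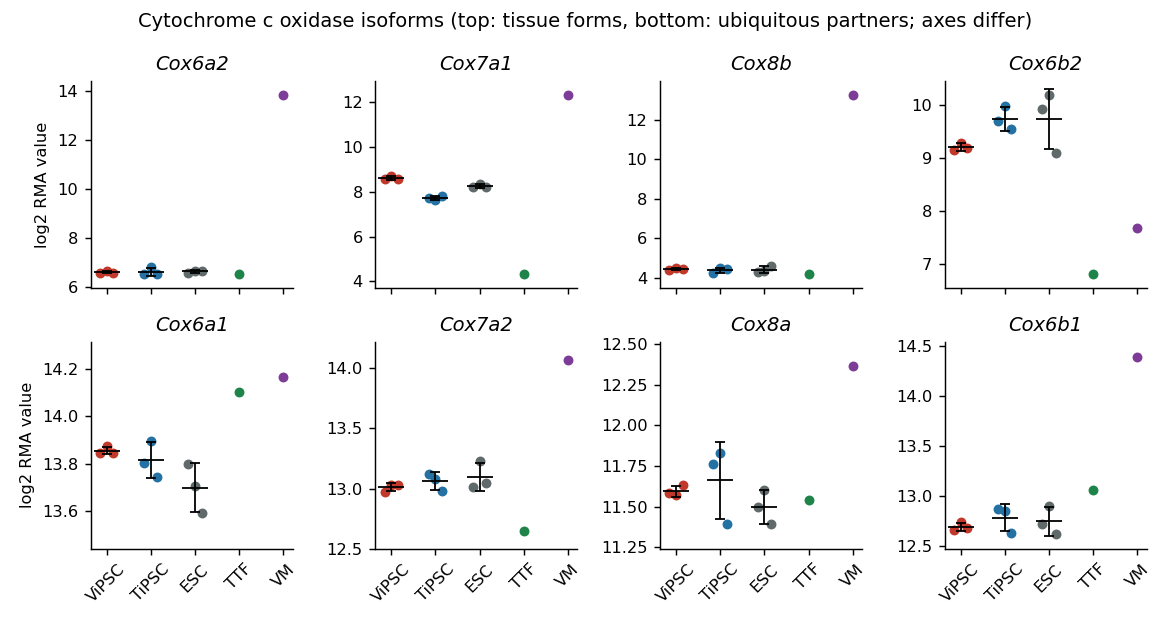
Log2 RMA values (y axes, which differ between panels) of 4 tissue forms of complex IV subunits (top) and their ubiquitous partners (bottom) in each array (points) of the 5 kinds of cells (x axis), with mean and SD for groups of 3. Cox6a2 and Cox8b are high in VM alone, Cox7a1 is at 7.63 to 8.69 in the pluripotent arrays against 4.33 in TTF and 12.30 in VM, and Cox6b2 is highest in the pluripotent arrays.

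Cox7a1, the third muscle form, behaved otherwise in the pluripotent cells. It was at 8.58, 8.69 and 8.56 in ViPSC, 7.70, 7.63 and 7.81 in TiPSC, 8.22, 8.34 and 8.21 in ESC, 4.33 in TTF and 12.30 in VM, from its only probe set. The 9 pluripotent arrays thus lay between the source arrays, at least 3.30 units above TTF and 3.61 below VM. In that it was unlike Cox6a2 and Cox8b, for which the TiPSC mean differed from TTF by 0.08 and 0.19 units against 3.38 for Cox7a1.

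The isoforms of other tissues were not raised in VM: of 5 genes 0 were at least 1 unit higher and 1 was lower. Ndufa4l2, the relative of Ndufa4 that is known to rise in hypoxia, was at 7.73, 7.61 and 7.80 in ViPSC, 7.66, 7.98 and 7.53 in TiPSC, 7.78, 7.50 and 7.06 in ESC, 8.82 in TTF and 5.20 in VM. It was the only member lower in VM by 1 unit or more (−3.62), while Ndufa4 itself was 1.55 units higher. Cox6b2, known from testis, was at 9.15 to 9.28 in ViPSC, 9.55 to 9.98 in TiPSC, 9.10, 9.92 and 10.18 in ESC, 6.82 in TTF and 7.68 in VM, and was thus highest in the pluripotent cells. Its partner Cox6b1 was at 12.62 to 12.90 in those arrays, 13.06 in TTF and 14.39 in VM. Cox7b2 and Cox8c, also known from testis, were at 4.05 to 5.30 and 6.56 to 6.91 in the pluripotent arrays and at 3.88 and 6.38 in VM, and Cox4i2, the lung and hypoxia form, was at 3.50 in VM and 3.91 to 4.43 elsewhere. The 4 germ cell markers had medians of 7.01 to 8.27 in the pluripotent arrays against 4.31 in TTF and 3.29 in VM, and their part in the Cox6b2 level was not tested.

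Comparing induced cells with the cells they were made from asks what changed with reprogramming. In the respiratory chain, the cells from myocytes lay below their source and those from fibroblasts near theirs. In all 3 ViPSC arrays 66 of the 90 genes were at least 1 unit lower than in VM and 5 were higher, against 13.8% and 16.7% of all genes. In all 3 TiPSC arrays 4 were at least 1 unit higher than in TTF and 0 lower, against 13.3% and 13.1% of all genes. At 2 units ViPSC had 1 higher and 10 lower (6.44% and 6.76% of all genes) and TiPSC 3 higher and 0 lower (4.51% and 6.01%). The median difference was −1.48 from VM to ViPSC and 0.13 from TTF to TiPSC (all genes 0.04 and 0.07). Neither has a test, and the VM and TTF values also enter the comparison of VM with TTF above.

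From VM to ViPSC, 31 of 34 complex I subunits were lower by at least 1 unit, as were all 4 of complex II, all 8 of complex III, 10 of 19 genes of complex IV and 13 of 17 of complex V. The ViPSC mean minus VM was −1.68 for Sdha, −1.87 for Ndufv1 and −2.04 for Atp5o, each with 3 ViPSC arrays within 0.09 units of each other. For the 3 muscle forms it was −8.81 (Cox8b), −7.20 (Cox6a2) and −3.69 (Cox7a1). The 5 genes that were higher in ViPSC than in VM were Ndufa4l2 (2.52), Cox7c (1.74), Cox6b2 (1.53) and the assembly factors Ndufaf6 (1.11) and Ndufaf7 (1.07). When each array was centred on its median, which moves VM by 0.11 units against TTF and by 0.08 against ViPSC, 3 of these 5 stayed past the limit.

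From TTF to TiPSC, the higher genes were Cox7a1 (3.38), Cox6b2 (2.92), Ndufaf6 (2.19) and Cox7c (1.78). Ndufaf6, an assembly factor of complex I, was at 8.79 to 9.07 in the pluripotent arrays, 6.81 in TTF and 7.81 in VM. Cox7c and Cox6b2 and Ndufaf6 were thus higher in the induced cells of both origins than in the cells they came from. TTF lay within 1 unit of the pluripotent mean for 85 of the 90 genes (94.4%, against 69.5% of all genes). Without TiPSC 2, Ndufa4l2 was also lower than in TTF by at least 1 unit in both remaining arrays. In 32 of the 90 genes (35.6%, against 9.36% of all genes) all 3 ViPSC arrays lay below VM and all 3 TiPSC arrays above TTF.

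**Figure D3:**
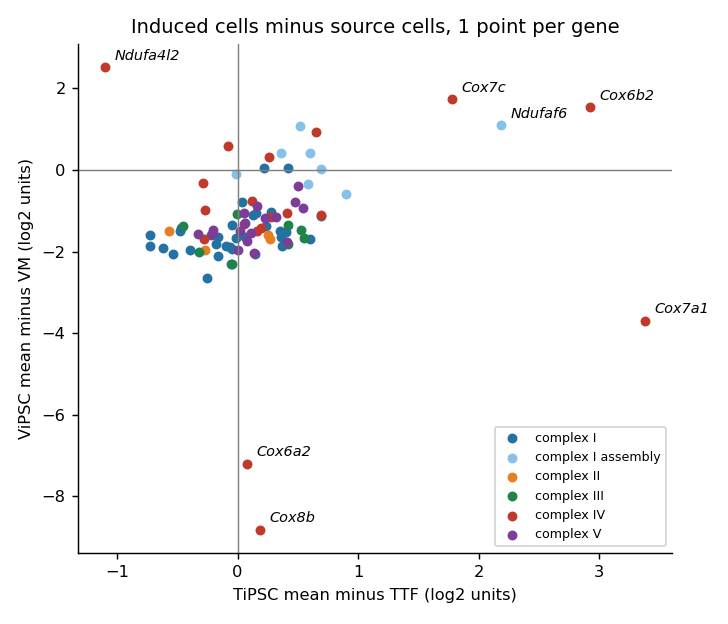
For each of the 90 genes (points, coloured by complex), the mean of 3 TiPSC arrays minus the TTF array (x axis) against the mean of 3 ViPSC arrays minus the VM array (y axis), both in log2 units. Most genes lie near 0 on the x axis and between −1 and −2.3 on the y axis, while the muscle forms of complex IV lie at −3.69 to −8.81 on the y axis.

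Among the pluripotent cells these genes varied little. The range over the 9 arrays had a median of 0.42 units per gene, against 0.52 over all genes, and was under 0.5 units for 59 of the 90 genes (65.6%, against 47.2% of all genes). It was widest for Ndufs5, an accessory subunit of complex I, which was at 10.11, 10.09 and 10.12 in ViPSC, 10.19, 10.09 and 9.91 in TiPSC and 8.87, 9.64 and 9.55 in ESC. All ESC arrays lay below all induced arrays for Ndufs5, with ESC 1 the lowest, and VM stood at 11.60. The difference did not pass the limma threshold, at 0.75 ± 0.18 for ViPSC (SE, adjusted p = 0.0717) and 0.71 ± 0.18 for TiPSC (adjusted p = 0.116).

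ViPSC against TiPSC asks whether the induced cells of the 2 origins differed. Of the 90 genes 3 passed at an adjusted p under 0.05 in the limma fit, all higher in ViPSC. Of all genes 5.63% passed (3.2% with the higher mean in ViPSC, 2.43% with the lower). The median difference of the members was 0.0044, against −0.0349 over all genes. ViPSC and TiPSC arrays were fully apart for 30 of the 90 genes, against 33.5% of all genes. No gene of complexes I, II, III or V passed (0 of 63, lowest adjusted p = 0.107, that of Uqcrq).

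Cox7a1 had the largest difference, with its values per array given above. The mean was 8.61 ± 0.07 in ViPSC and 7.71 ± 0.09 in TiPSC (SD, n = 3), a difference of 0.90 ± 0.08 log2 units (SE, limma adjusted p = 0.00118), or 1.86-fold. It passed under all 14 alternatives. ESC lay between them at 8.26 ± 0.07, above TiPSC by 0.54 ± 0.08 (limma adjusted p = 0.0325) and below ViPSC by 0.35 ± 0.08, which did not pass (adjusted p = 0.0706). The order of the 3 pluripotent groups was ViPSC, ESC, TiPSC, with no overlap between arrays of neighbours. No difference passed for the other muscle forms: it was −0.02 ± 0.10 for Cox6a2 (adjusted p = 0.936) and 0.06 ± 0.11 for Cox8b (adjusted p = 0.804).

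The other genes were assembly factors of complex I. Ndufaf8 was at 10.27, 10.22 and 10.27 in ViPSC, 9.63, 9.69 and 9.54 in TiPSC, 9.68, 9.67 and 9.94 in ESC, 9.64 in TTF and 10.34 in VM. It was higher in ViPSC than in TiPSC by 0.63 ± 0.09 (limma adjusted p = 0.00813), with no overlap, and its dimmer probe set was at 8.30 to 8.37 against 7.86 to 8.17. Ndufaf1 was at 9.28, 9.18 and 9.26 in ViPSC, 8.81, 8.73 and 8.69 in TiPSC, 8.84, 8.87 and 9.12 in ESC, 8.39 in TTF and 8.83 in VM. Its difference of 0.50 ± 0.09 passed (limma adjusted p = 0.0189) but was lost without ViPSC 1, ViPSC 2, ViPSC 3, TiPSC 1 or TiPSC 2, with adjusted p of 0.0900, 0.0695, 0.0836, 0.0595 and 0.0583. Without TiPSC 3 the count of members past the threshold was 5 (5.56%, against 4.8% of all genes). Among these were Uqcrh (−0.43, limma adjusted p = 0.0234) and Sdhd (−0.45, adjusted p = 0.0270), lower in ViPSC.

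Against ESC, 2 genes passed for ViPSC, both higher (of all genes 2.14%, with 1.45% higher and 0.693% lower), and 2 for TiPSC, 1 in each direction (of all genes 0.632%, with 0.291% higher and 0.341% lower). These comparisons share the ESC arrays. Cox7c, a small ubiquitous subunit of complex IV, was at 8.0, 8.15 and 8.16 in ViPSC, 8.11, 7.97 and 7.85 in TiPSC, 7.38, 7.49 and 7.33 in ESC, 6.20 in TTF and 6.37 in VM. It was higher than in ESC by 0.70 ± 0.10 in ViPSC (SE, limma adjusted p = 0.0140) and by 0.58 ± 0.10 in TiPSC (adjusted p = 0.0396). It was the only one of the 10 ubiquitous subunits for which both source arrays lay below every pluripotent array. Its dimmer probe set was at 5.32 to 5.69 in the induced arrays and 4.99 to 5.36 in ESC. The brighter one was at 6.20 to 8.16 over the 11 arrays, where the other ubiquitous subunits were at 11.39 or more. Probe levels of different genes cannot be set against each other. Whether the Cox7c probe sets read the main transcript of that gene was not tested. Ndufaf8 was higher in ViPSC than in ESC by 0.49 ± 0.09 (adjusted p = 0.0370) and Cox7a1 lower in TiPSC than in ESC, as given above.

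These calls rest on few arrays. Without ViPSC 1, ViPSC 2 or ViPSC 3, 0 members passed against ESC by limma, with adjusted p of 0.144 to 0.157 for Ndufaf8. Of all genes only 0.154%, 0.126% and 0.121% passed in these fits. Without ESC 1, ESC 2 and ESC 3 there were 10, 1 and 5 members, where 13.8%, 0.341% and 3.34% of all genes passed. For TiPSC against ESC 0 members passed without TiPSC 1, TiPSC 2, ESC 2 or ESC 3. Of all genes 0.066%, 0.104%, 0.0934% and 0.313% passed in these fits. Without ESC 1 there were 7 members, where 16.7% of all genes passed. Leaving out ViPSC 1, ViPSC 2 or ViPSC 3, which are not in this comparison, also gave 0 members (of all genes 0.137%, 0.154% and 0.165%). The fit shares 1 spread among the pluripotent groups, so the ViPSC arrays enter these p-values too. The SDs in ViPSC, TiPSC and ESC differed for some genes, as for Atp5d (0.0087, 0.0581 and 0.1773), and less for Cox7c (0.0905, 0.1322 and 0.0825). The numbers of members with an unadjusted p under 0.05 were 15 for ViPSC and 8 for TiPSC against ESC in the full fit (16.7% and 8.89%, against 17.2% and 18.1% of all genes).

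**Figure D4:**
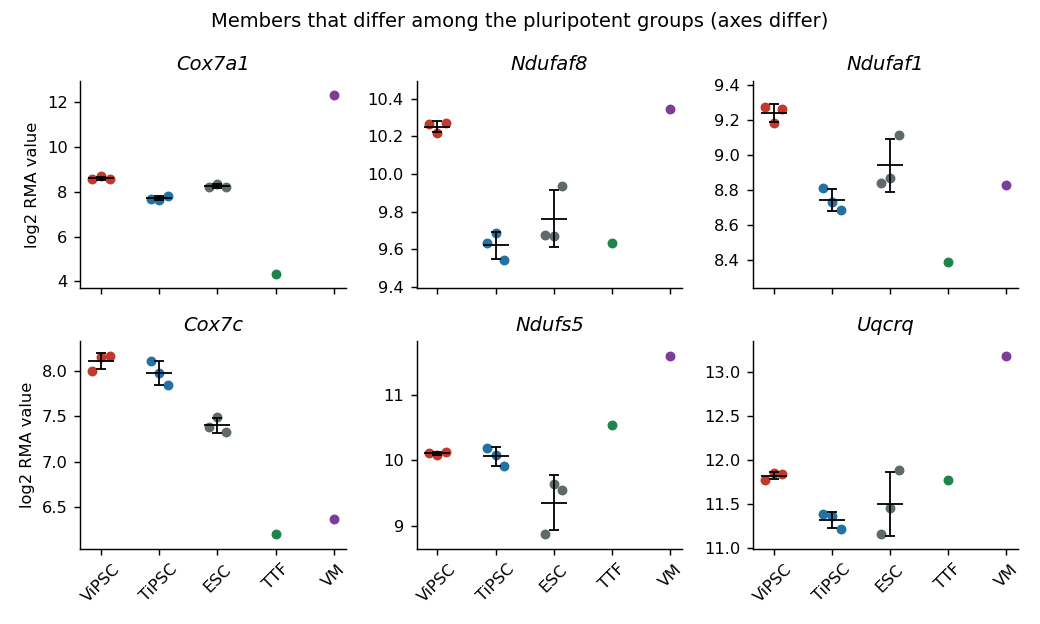
Log2 RMA values (y axes, which differ between panels) in each array (points) of the 5 kinds of cells (x axis), with mean and SD for groups of 3, of the 4 genes that passed between pluripotent groups and of Ndufs5 and Uqcrq, which did not. ViPSC is the highest pluripotent group for Cox7a1, Ndufaf8 and Ndufaf1, and ESC is the lowest for Cox7c and Ndufs5.

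Some of this variation ran with the chromosome. Over genes with a mean of at least 7 in the pluripotent arrays, the median of chromosome 11 was 0.26 to 0.27 units above the mean of the 9 arrays in ViPSC, −0.20 in each TiPSC array and −0.17, −0.20 and 0.19 in ESC 1, ESC 2 and ESC 3. The 5 members on chromosome 11 (Atp5g1, Atp5h, Ndufaf8, Uqcr10, Uqcrq) had medians of 0.20 to 0.27 in ViPSC, −0.36 to −0.11 in TiPSC and −0.41, −0.02 and 0.40 in ESC. Of all genes of that chromosome 17.5% passed between ViPSC and TiPSC, 247 of them upward in ViPSC and 6 downward, and Ndufaf8 is one of them. Its difference of 0.63 stands beside a median difference of 0.42 over the 5 members there, itself included. Over all 1443 genes of the chromosome the median difference was 0.22, but these include genes with a mean under 7. Over the 644 genes with a mean of at least 7, the chromosome medians above averaged 0.27 in ViPSC and −0.20 in TiPSC. Uqcrq, at 11.77 to 11.84 in ViPSC, 11.21 to 11.38 in TiPSC and 11.15, 11.45 and 11.88 in ESC, differed by 0.50 ± 0.16 without passing (limma adjusted p = 0.107). Cox7a1 is on chromosome 7 and Ndufaf1 on chromosome 2, and with chromosomes 8, 11, X and Y left out both still passed between ViPSC and TiPSC.

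On the X chromosome the median was 0.65 in ESC 2 and ESC 3 and −0.20 to −0.12 in the other pluripotent arrays. Ndufa1, which is X-linked and needed for complex I assembly, was at 12.90 and 12.86 in these ESC arrays against 12.02 in ESC 1 and 11.99 to 12.15 in the induced arrays. Ndufb11, the other X-linked member, was 0.53 and 0.32 above the mean in ESC 2 and ESC 3 and below it in the other arrays. On chromosome 8 the median was 0.45 in TiPSC 3 and −0.09 to −0.01 in the others, and the members there, Cox4i1, Ndufa13 and Ndufb7, were 0.19, 0.31 and 0.27 above the mean in TiPSC 3. Over the 80 members on other chromosomes the median lay between −0.12 (TiPSC 3) and 0.08 (ESC 2). What sets these chromosomes apart was not tested.

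**Figure D5:**
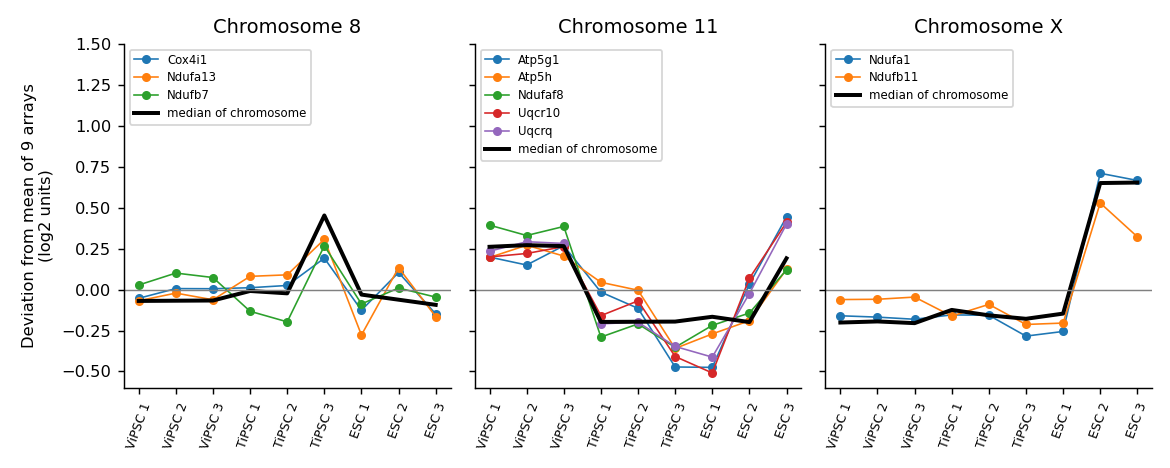
Deviation of each member (thin lines) and of the median of all expressed genes (thick line) from the mean of the 9 pluripotent arrays (y axis, log2 units) in each array (x axis) for chromosomes 8, 11 and X. All members plotted lie above the mean in TiPSC 3 on chromosome 8, in the ViPSC arrays and ESC 3 on chromosome 11, and in ESC 2 and ESC 3 on the X chromosome.

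Genes around the respiratory chain, from lists outside the symbol rule, were measured beside it. Of 22 electron carriers and transporters 13 were at least 1 unit higher in VM than in TTF and 1 was lower (median 1.61). Cyc1, the cytochrome c1 of complex III, was at 13.43 in VM against 10.72 in TTF, Coq8a, needed for ubiquinone synthesis, at 10.26 against 5.71, and Etfdh, which feeds electrons from fatty acid oxidation into ubiquinone, at 11.71 against 9.10. The lower gene was Slc25a31, the testis form of the ATP/ADP carrier (2.70 against 3.96), while its heart form Slc25a4 was at 14.60 against 12.99. Of 38 assembly factors 9 were higher and 0 lower (median 0.30), with Cox20 (12.10 against 9.86), Foxred1 (8.79 against 6.84) and Ecsit (9.38 against 7.53) the most. As with the Ndufaf genes, most assembly factors thus stayed under 1 unit. Of all genes 10.6% were higher in VM by that size and 13.6% lower, so the 9 of 38 still lay above the share of all genes that were higher. The only mitochondrially encoded subunit with a probe set of its own, ND5 of complex I, was at 13.71 in VM, 11.92 in TTF and 11.09 to 11.64 in the pluripotent arrays.

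Of 20 regulators 5 were at least 1 unit higher in VM and 0 lower (median 0.23). The coactivators of mitochondrial genes Ppargc1a (9.33 against 3.63 in TTF) and Ppargc1b (9.85 against 4.16) and the muscle regulator Perm1 (8.95 against 3.91) had the largest differences, with the nuclear receptors Esrrg (6.39 against 3.26) and Esrra (8.08 against 6.74). In the pluripotent arrays Ppargc1a was at 3.34 to 3.76, Ppargc1b at 4.69 to 5.04 and Perm1 at 3.40 to 3.95, at or near the TTF value. Other regulators were higher in the stem cells: for 12 of the 20, every pluripotent array lay above both source arrays, against 7 of the 90 members and 24.1% of all genes. The 12 include Esrrb, which is also among the pluripotency markers used above. They also include Mterf1a, whose lowest pluripotent array (6.8591) was level with TTF (6.8563). Tfam, the packaging factor of mitochondrial DNA, was at 10.11 to 10.41 in the pluripotent arrays against 8.44 in TTF and 8.85 in VM, Nrf1 at 9.0 to 9.34 against 6.65 and 6.62, Tfb1m at 8.74 to 9.30 against 7.33 and 6.90, and Ssbp1 at 12.00 to 12.57 against 10.94 and 10.64. Others of the list did not lie apart: Tfb2m was at 8.21 to 8.82 in the pluripotent arrays against 8.70 and 8.60, and Polg, the polymerase of mitochondrial DNA, at 8.37 to 8.74 against 8.37 and 8.55.

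Between pluripotent groups, 1 of 22 carriers was higher and 1 lower in ViPSC than in TiPSC. Of all genes 3.2% were called higher and 2.43% lower in that comparison. Cyct, the testis cytochrome c, was at 11.13 ± 0.06 in ViPSC (SD, n = 3). In TiPSC it was at 8.84 ± 0.44 and in ESC at 9.76 ± 0.59, while TTF had 3.70 and VM 4.27. It was higher in ViPSC than in TiPSC by 2.29 ± 0.29 (SE, limma adjusted p = 0.00424), a call kept in all 14 alternatives. Its difference from ESC of 1.37 ± 0.29 (limma adjusted p = 0.0484) passed in 4 of 14, with adjusted p up to 0.187. Cycs, the somatic cytochrome c, was lower in ViPSC than in TiPSC by 0.34 ± 0.08 (11.76 against 12.10, limma adjusted p = 0.0464), a call kept in 3 of 14 alternatives. Of 38 assembly factors Tmem126b was lower (−0.84 ± 0.13, limma adjusted p = 0.00864) and Sdhaf4, for complex II, higher (0.46 ± 0.11, adjusted p = 0.0368) in ViPSC than in TiPSC, in 13 of 13 and 8 of 14 alternatives. These 2 of 38 lie near the share of all genes that passed (5.63%), so the count sets the list apart from other genes in no way. Timmdc1 was lower in ViPSC than in ESC (−0.73 ± 0.15, limma adjusted p = 0.0427), in 7 of 14 alternatives, with adjusted p up to 0.191. Against ESC it was 1 of 38 assembly factors and Cyct 1 of 22 carriers, where 2.14% of all genes passed. No regulator passed in any of the 3 comparisons, and none of these genes passed between TiPSC and ESC.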

How the data were processed

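Total RNA of 11 samples was measured on Affymetrix mouse expression arrays. The deposited values are log2 intensities that the authors summarised per probe set by RMA, per the submitters' processing notes (version not stated), and were used unchanged. RMA gives levels that cannot be compared between genes, compresses low signals and keeps no depth; precision is limited by how few arrays there are.

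Of 45101 probe sets, 64 controls, 932 with several symbols and 9160 without one were left out, which left 34945 probe sets of 18193 genes. The 9 pluripotent arrays were fitted with limma 3.58.1 in R 4.3.3 (1 mean per group, eBayes, Benjamini-Hochberg adjustment over all genes, threshold 0.05). Each gene had 1 spread, shared by all groups in the fit. VM and TTF, with 1 array each, were compared by size only, at 1 log2 unit. The code was tested on simulated data. Replicate numbers did not pair the samples: 1 of 9 same-numbered pairs had a correlation of deviations over 0.1.

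The genes, lists and tests were chosen with earlier results of these data known. Named by rule were isoform genes, complex II, the 2 largest and 2 smallest VM minus TTF differences in complexes I, III, IV and V, genes past the threshold and, from each list, the up to 3 largest differences; others were named after their values were seen. Promoters came from RefSeq (GRCm38.p6).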

Additional observations from a re-analysis of the deposited data

Results flagged for a closer look

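For 13 of the 34 members named by rule, every ViPSC array lay on one side of VM and every TiPSC array on the opposite side of TTF. Some of the 34 were named for the size of their VM minus TTF difference. Of all genes 9.36% lay below VM in all ViPSC arrays and above TTF in all TiPSC arrays. No share over all genes is given for both directions together. The difference between the origins in these 13 genes was not tested, since each source has 1 array. It contains the VM minus TTF difference with the sign turned (VM minus TTF was 9.07 for Cox8b and −3.62 for Ndufa4l2). Where ViPSC and TiPSC differ little, it mostly restates that difference between the source arrays and is no further result. Given as ViPSC minus VM less TiPSC minus TTF in log2 units, it was −9.00 for Cox8b, −7.07 for Cox7a1, −1.47 for Cox7a2 and −1.43 for Cox4i1. It was 3.61 for Ndufa4l2 and 0.66 for Cox4i2, the only genes of the 13 that were higher in ViPSC than in VM and lower in TiPSC than in TTF. In complex V it was −2.17 for Atp5g1, −1.11 for Atp5g3, −0.91 for Atp5g2 and −1.04 for Atp5pb. In complexes I, II and III it was −2.24 for Ndufv1, −1.95 for Sdha and −2.24 for Uqcrc2. The values of Cox8b in all arrays but VM, of Cox4i2 in all arrays and of Cox7a1 in TTF lie near the bottom of the scale. For Cox8b and Cox4i2 the TiPSC sides of 0.19 and −0.08 are too small there to read a direction from, and the sizes given for these 3 genes depend on that background level.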

How the results depend on the processing

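No called difference of the 34 members named by rule changed direction. Of 1407 values under the alternatives, 1367 kept their side of the threshold, 31 lost the call and 9 gained one. Most of the 1407 belong to genes without a call in the main fit, which makes the 1367 no measure of how stable the calls are. All 31 losses fell on the few member calls, which numbered 3, 2 and 2 in the 3 comparisons. Direction was checked only where the main or the alternative fit made a call. Members past the limma threshold between ViPSC and TiPSC numbered 3, against 7 in a fit of the 6 arrays alone and 2 to 5 when 1 replicate was left out. For ViPSC against ESC the 2 became 1 with centred arrays, with the 6 arrays alone or without chromosomes 8, 11, X and Y, and 0 to 10 with 1 replicate left out. For TiPSC against ESC the 2 became 1 with trend and robust eBayes, centred arrays, every probe set or the mean of probe sets, 0 with the 6 arrays alone, and 0 to 7 with 1 replicate left out. With the replicate block the counts were 3, 1 and 0; it ended the calls of Ndufaf8 against ESC (adjusted p = 0.0856) and of Cox7a1 (0.0848) and Cox7c (0.0918) in TiPSC against ESC, and no other call among those 34 members. Of the 6 calls of genes outside the membership rule it kept Cyct (adjusted p = 0.0194) and Tmem126b (0.0312) between ViPSC and TiPSC and ended Cycs (0.0973) and Sdhaf4 (0.0542) there and Cyct (0.103) and Timmdc1 (0.0563) against ESC. Counts over all genes were 1024, 390 and 115, and with the 6 arrays alone 2621, 73 and 1. With the block they were 623, 103 and 9, and without the 4 chromosomes 607, 184 and 93. With 1 replicate of a compared group left out they were 207 to 874, 22 to 2519 and 12 to 3038. With 2 log2 units in place of 1, 19 of the 68 members were higher in VM than in TTF, and ViPSC had 1 higher and 10 lower than VM; with centred arrays 3 were higher than VM. Without replicate 2, 1 member was lower in TiPSC than in TTF, where 0 were in the main count. The mean of probe sets gave 6.23 for Cox7a1 minus Cox7a2 and 8.52 for Cox8b minus Cox8a. The cause of these changes was not tested. VM and TTF have no replicate.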
